A study of Homo sapiens with 12 samples.

Results

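The proteasome genes of the human myeloma lines MM.1S, MM.1R and INA-6 were measured with microarrays after 24 h with HS-5 bone marrow stromal cells and in the same lines kept alone. The members are all probe sets of the array whose only gene symbol begins with PSMA, PSMB, PSMC, PSMD, PSME, PSMF or PSMG. They came to 97 of 54675 probe sets and 50 of 19775 single gene symbols. Of the 50 symbols, 42 name subunits, activators, an inhibitor or assembly chaperones of the proteasome, and 8 name antisense, divergent or partner genes that share the prefix and are described apart. PSME2, PSMA6 and part of PSMA2 lie among 5 probe sets that carry several symbols and were left out.

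The groups were MM.1S, MM.1R and INA-6 cells sorted as GFP-positive after coculture, and each line cultured without stroma. All lines carried a stable GFP transgene, and each group holds 2 arrays that the study describes as technical replicates, so a p-value within a line measures the spread between duplicate arrays and not between cultures. MM.1R is a dexamethasone-resistant relative of MM.1S, and INA-6 is a line that depends on interleukin-6. HS-5 RNA was not analysed. The arrays measure RNA of a whole sorted population, so that fewer cells expressing a gene and less of its RNA per cell cannot be told apart.

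The proteasome is the protease that degrades proteins tagged with ubiquitin. Its core is a barrel of stacked alpha and beta rings with the proteolytic sites in the beta rings, and a regulatory particle made of a base and a lid recognises, unfolds and feeds in the substrate. PSMB5 carries the chymotrypsin-like site, PSMB6 the caspase-like site and PSMB7 the trypsin-like site. Interferon induces PSMB8, PSMB9 and PSMB10, which take the places of PSMB5, PSMB6 and PSMB7 in newly assembled immunoproteasomes, and these produce peptides for major histocompatibility complex class I molecules. Myeloma cells make large amounts of immunoglobulin and are treated with proteasome inhibitors such as bortezomib, which binds the PSMB5 site.

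Several features of the arrays moved with the culture condition before any proteasome gene is considered. All 10 plasma cell markers listed were above the array's median on each of the 12 arrays, and 8 of them rose in MM.1S, 3 rose in MM.1R, and 3 rose and 4 fell in INA-6, against 30.5%, 14.2% and 50.8% of all genes called either way in these lines. Their median log2 changes were 0.99, 0.54 and -0.43, against 0.11, 0.09 and 0.47 over all genes. In the common test the largest rises among these markers were IRF4 at 1.36 and PRDM1 at 1.19 and the falls SLAMF7 at -1.03 and JCHAIN at -0.15, none of which passed. The summed intensity of 15 measured stromal markers was 18498 to 18855 in MM.1S coculture against 1083 to 1351 in MM.1S alone, 30321 to 30819.7 in MM.1R coculture against 1977 to 2011 in MM.1R alone, and 17361 to 17675 in INA-6 coculture against 3893 to 5081 in INA-6 alone, and none of the 15 was at 0 on any array. MMP1 and COL6A2 rose most of them in the common test, by 8.28 ± 0.44 (SE, adjusted p = 0.00864) and 7.15 ± 0.44 (SE, adjusted p = 0.00864), while COL1A1 and TAGLN had common log2 changes of -0.47 and -0.85, which did not pass. The ratio of the 3′ to the 5′ probe set of ACTB, a measure of RNA integrity, averaged 5.10 ± 0.19 in MM.1S coculture and 22.4 ± 0.45 in MM.1S alone (SD, n = 2 arrays each). It averaged 5.21 ± 0.29 in MM.1R coculture and 31.4 ± 1.16 in MM.1R alone, but 32.0 ± 0.53 in INA-6 coculture and 5.51 ± 0.29 in INA-6 alone. The ratio was thus lower after coculture in both MM.1 lines and higher after coculture in INA-6. That of GAPDH moved the same way, at 1.89 ± 0.04 in MM.1S coculture and 5.99 ± 0.33 in MM.1S alone, 1.71 ± 0.01 in MM.1R coculture and 6.51 ± 0.10 in MM.1R alone, and 4.96 ± 0.07 in INA-6 coculture and 2.88 ± 0.49 in INA-6 alone. The mean intensity of the BioB hybridisation control, a bacterial transcript added to each sample, was lower after coculture in each line. It was 338 ± 10.4 in MM.1S coculture and 1832 ± 107 in MM.1S alone, 384 ± 88.2 in MM.1R coculture and 543 ± 16.9 in MM.1R alone, and 776.5 ± 7.92 in INA-6 coculture and 3388 ± 503 in INA-6 alone. Duplicate arrays correlated at r = 0.929 to 0.982 over the tested probe sets in the other groups and at 0.821 in INA-6 alone. The part of these features in the results below was not tested.

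In the test of a coculture effect common to the 3 lines, 0 of the 85 proteasome probe sets that passed the filter on low values passed limma's test at an adjusted p of 0.05, and 15 had an unadjusted p under 0.05. Over all 35664 probe sets tested, 1.13% passed. The median log2 change, coculture minus alone, was 0.36 over the 85 and 0.18 over all. That test takes the 3 lines as its replicates, although MM.1S and MM.1R are related. Leaving out INA-6, with the duplicates still averaged, made MM.1S and MM.1R the only replicates. It gave 25 probe sets past the threshold (21 higher, 4 lower, 29.4%) against 22.9% of all. Keeping INA-6 and taking the 12 arrays singly, which counts technical duplicates as replicates, gave 27, against 28.1% of all.

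Within single lines the proteasome genes moved most as a group in MM.1S. There 42 of the 85 probe sets rose and 1 fell, which is 50.6% against 29.3% of all probe sets (20.4% higher, 8.98% lower), and their median log2 change was 0.60 against 0.05 for all. In MM.1R, 13 rose and 2 fell, 17.6% against 14% of all (10.5% higher, 3.48% lower), with a median of 0.10 against 0.02. In INA-6, 25 rose and 16 fell, 48.2% against 47.7% of all (35.2% higher, 12.5% lower), with a median of 0.29 against 0.40. The MM.1R and INA-6 shares thus lay near those of the whole array. The filter could keep a probe set through a single condition, so these counts describe the tested probe sets and not all 97. After quantile normalization the split was 30 higher and 8 lower in MM.1S, 6 higher and 4 lower in MM.1R, and 13 higher and 17 lower in INA-6. Of all 35664 probe sets, 5866 were then higher and 4314 lower in MM.1S. The counts were 2657 and 1986 in MM.1R, and 9825 and 6326 in INA-6. That scaling lowered the median of all probe sets to -0.06 in MM.1S, -0.11 in MM.1R and 0.16 in INA-6, and under it the members' median was 0.25 in MM.1S, -0.17 in MM.1R and 0.10 in INA-6. In 1 probe set per gene, the brightest over the 12 arrays, 28 of 47 genes rose in MM.1S against 30.5% of all genes called either way, 8 of 47 rose in MM.1R against 14.2%, and 16 rose and 7 fell in INA-6 against 50.8%. PSMB8, its overlapping gene PSMB8-AS1 and the lid subunit PSMD8 rose in each of the 3 lines, as did 5.29% of all probe sets tested.

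**Figure D1:**
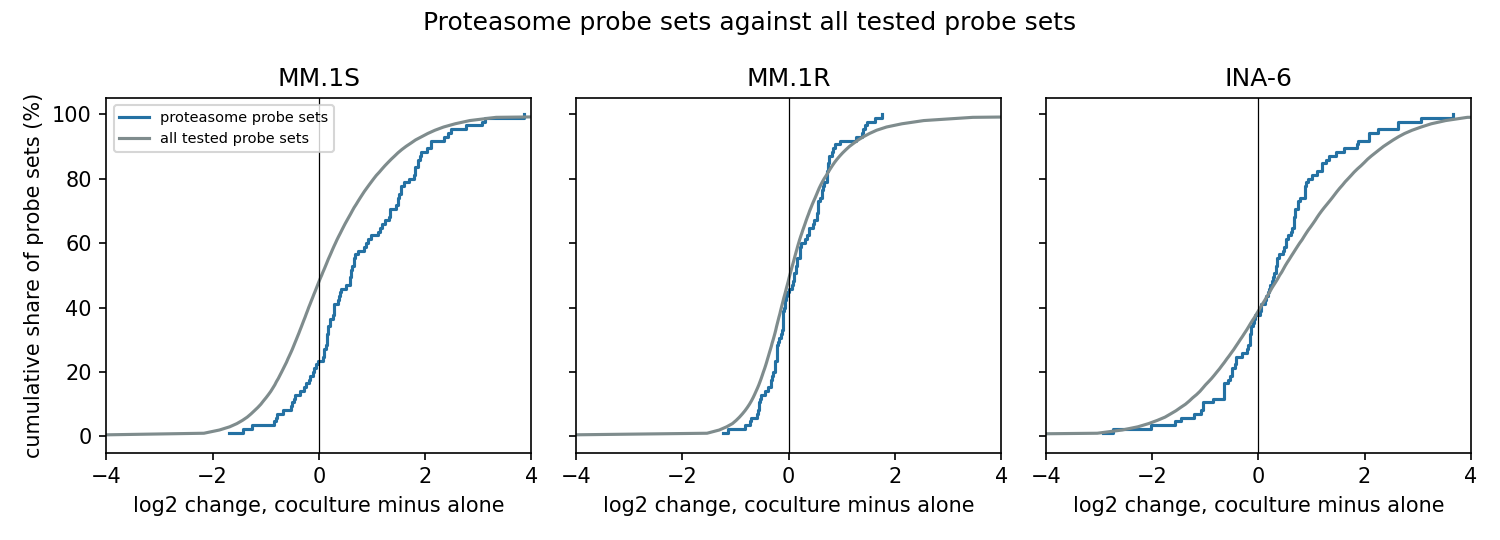
Cumulative share of probe sets (y axis, percent) at or below each log2 change of coculture minus alone (x axis) in MM.1S, MM.1R and INA-6, for the 85 proteasome probe sets (blue) and all 35664 tested probe sets (grey). The blue curve lies to the right of the grey one in MM.1S, where the medians are 0.60 and 0.05, and crosses it near 0 in MM.1R and INA-6.

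PSMB8, the inducible chymotrypsin-like subunit, changed most of the catalytic genes in MM.1S and MM.1R. Its intensity was 652 and 627 in MM.1S coculture, against 89.3 and 90.4 in MM.1S alone, 618 and 589 in MM.1R coculture, against 192 and 193 in MM.1R alone, and 1007 and 881 in INA-6 coculture, against 599 and 517 in INA-6 alone. Both coculture arrays lay above both arrays without stroma in each line. The log2 change was 2.76 ± 0.17 (SE, adjusted p = 4.73e-05) in MM.1S, 1.62 ± 0.17 (SE, adjusted p = 0.000682) in MM.1R and 0.76 ± 0.17 (SE, adjusted p = 0.00733) in INA-6. After coculture the intensities of MM.1S and MM.1R lay close together, whereas without stroma they differed, and INA-6 was the highest line in both conditions. In the common test PSMB8 had 1.71 ± 0.49 (SE, unadjusted p = 0.0101, adjusted p = 0.144), which takes the 3 lines as replicates. With the 12 arrays taken singly, which counts technical duplicates as replicates, the same change had an SE of 0.29 and an adjusted p of 0.00129. With INA-6 left out instead and the duplicates still averaged, the PSMB8 change was 2.19 ± 0.36 (SE, adjusted p = 0.000939). The only replicates were then the related lines MM.1S and MM.1R. These were the only settings, 2 of 21, in which the common PSMB8 effect passed.

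PSMB9, the inducible subunit that takes the place of PSMB6, followed with smaller changes. Its intensity was 639 and 613 in MM.1S coculture, against 259 and 237 in MM.1S alone, 576 and 514 in MM.1R coculture, against 374 and 332 in MM.1R alone, and 810.5 and 749.8 in INA-6 coculture, against 542 and 465 in INA-6 alone. No group overlapped its counterpart. PSMB9 rose by 1.32 ± 0.18 (SE, adjusted p = 0.000983) in MM.1S and by 0.63 ± 0.18 (SE, adjusted p = 0.0202) in INA-6 on the log2 scale, and in MM.1R it had 0.62 ± 0.18 (SE, adjusted p = 0.0571), short of the threshold.

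The inducible trypsin-like subunit PSMB10 was the inducible gene with the largest fitted change in INA-6. It had intensities of 674 and 686 in MM.1S coculture, against 181 and 266 in MM.1S alone, 610.5 and 622 in MM.1R coculture, against 461 and 392 in MM.1R alone, and 573 and 522 in INA-6 coculture, against 281 and 287 in INA-6 alone. The coculture arrays were again the higher ones in each line, and the MM.1S arrays without stroma differed between themselves more than the other duplicates. The log2 changes were 1.61 ± 0.22 (SE, adjusted p = 0.000916) in MM.1S, 0.53 ± 0.22 (SE, adjusted p = 0.163) in MM.1R and 0.93 ± 0.22 (SE, adjusted p = 0.00800) in INA-6. The 3 calls in INA-6 depended on scaling. After quantile normalization the INA-6 changes were 0.39 for PSMB8, 0.20 for PSMB9 and 0.28 for PSMB10, with adjusted p-values of 0.0675, 0.348 and 0.338.

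The constitutive catalytic subunits rose in MM.1S as well, so the change there was not limited to the inducible genes. PSMB5 had intensities of 545 and 527 in MM.1S coculture, against 304 and 237 in MM.1S alone, 638 and 667 in MM.1R coculture, against 384 and 383 in MM.1R alone, and 674 and 651 in INA-6 coculture, against 543 and 504 in INA-6 alone. It rose by 0.98 ± 0.18 (SE, adjusted p = 0.00440) in MM.1S and 0.76 ± 0.18 (SE, adjusted p = 0.0272) in MM.1R and had 0.34 ± 0.18 (SE, adjusted p = 0.163) in INA-6, where quantile normalization turned the sign to -0.09. The MM.1R call ended under quantile normalization, with an adjusted p of 0.0801.

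PSMB6, the constitutive caspase-like subunit, rose in MM.1S and had a value below 0 in INA-6. Its intensity was 1559 and 1584 in MM.1S coculture, against 444 and 455 in MM.1S alone, 1506 and 1533 in MM.1R coculture, against 1093 and 1089 in MM.1R alone, and 1298 and 1126 in INA-6 coculture, against 1288 and 1372 in INA-6 alone. In MM.1S the coculture arrays stood 3.47-fold above the others, and in INA-6 the arrays of the conditions overlapped. The log2 change was 1.79 ± 0.17 (SE, adjusted p = 0.000167) in MM.1S, 0.48 ± 0.17 (SE, adjusted p = 0.102) in MM.1R and -0.14 ± 0.17 (SE, adjusted p = 0.530) in INA-6. PSMB7, the constitutive trypsin-like subunit, had intensities of 1374 and 1368 in MM.1S coculture, against 506 and 469.7 in MM.1S alone, 1382 and 1338 in MM.1R coculture, against 939 and 877 in MM.1R alone, and 1154 and 1064 in INA-6 coculture, against 1275 and 1207 in INA-6 alone. It rose by 1.48 ± 0.16 (SE, adjusted p = 0.000364) in MM.1S and had 0.58 ± 0.16 (SE, adjusted p = 0.0510) in MM.1R and -0.16 ± 0.16 (SE, adjusted p = 0.448) in INA-6. A further and dimmer PSMB7 probe set (244801_at) did not follow it, with -0.84 ± 0.32 (SE, adjusted p = 0.0830) in MM.1S, -1.24 ± 0.32 (SE, adjusted p = 0.0342) in MM.1R and 0.89 ± 0.32 (SE, adjusted p = 0.0469) in INA-6.

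**Figure D2:**
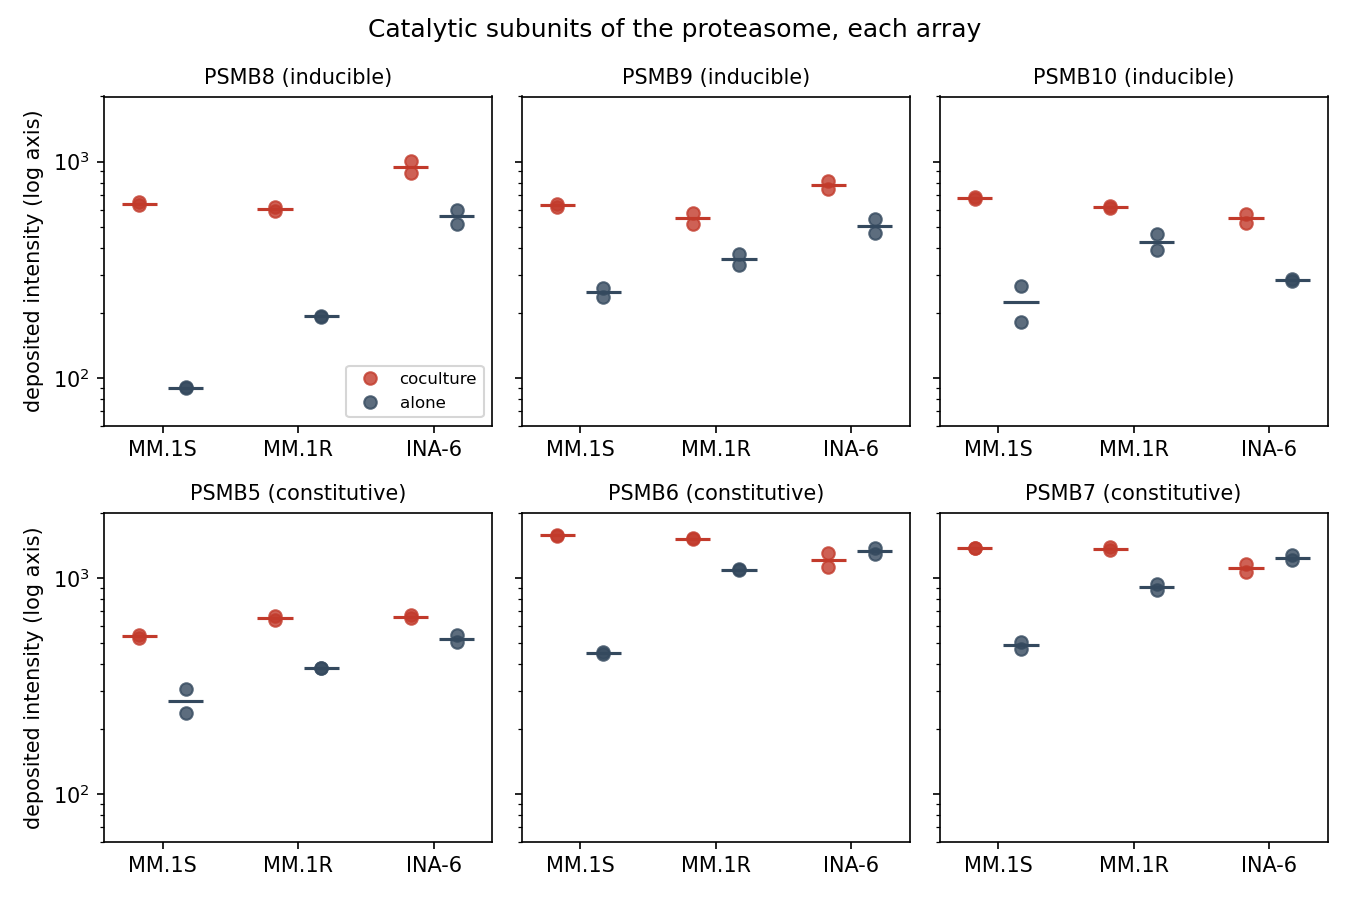
Deposited intensity (y axis, log scale) of the inducible catalytic subunits PSMB8, PSMB9 and PSMB10 (top) and the constitutive PSMB5, PSMB6 and PSMB7 (bottom) on each of the 12 arrays, by line, with coculture in red left of cells alone in dark blue. Points are arrays and lines the means of 2; in MM.1S all 6 genes are higher in coculture, and in INA-6 the 3 inducible genes are higher while PSMB6 and PSMB7 have fitted changes of -0.14 and -0.16.

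Set against each other within an array, the inducible genes changed more on average than the constitutive ones in each line. The mean log2 change of PSMB8, PSMB9 and PSMB10 was 1.90 in MM.1S, 0.93 in MM.1R and 0.77 in INA-6. That of PSMB5, PSMB6 and PSMB7 was 1.42, 0.61 and 0.01 in the same lines. The difference was 0.48 ± 0.14 in MM.1S, 0.32 ± 0.06 in MM.1R and 0.76 ± 0.05 in INA-6 (SE from 2 arrays a condition, with no p-value). In every line both coculture arrays exceeded both arrays of cells alone in this difference, by at least 0.32 in MM.1S, 0.23 in MM.1R and 0.70 in INA-6. A difference taken within an array is free of that array's overall scale.

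The difference between the sets rested on different genes in different lines. For the subunits that replace each other at the chymotrypsin-like site, PSMB8 minus PSMB5 changed by 1.78 ± 0.19 in MM.1S, 0.87 ± 0.07 in MM.1R and 0.42 ± 0.09 in INA-6. For PSMB9 and the PSMB6 that it replaces, PSMB9 minus PSMB6 changed by -0.47 ± 0.09 in MM.1S, 0.14 ± 0.13 in MM.1R and 0.77 ± 0.16 in INA-6. For the trypsin-like pair, PSMB10 minus PSMB7 changed by 0.13 ± 0.33 in MM.1S, -0.05 ± 0.08 in MM.1R and 1.09 ± 0.05 in INA-6. Thus PSMB8 was ahead of its counterpart in all lines, and PSMB9 and PSMB10 were ahead of theirs by several SE in INA-6 but not in MM.1S or MM.1R. Of the 9 possible pairs the inducible member changed more in 6 in MM.1S, 6 in MM.1R and 9 in INA-6.

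The promoters of the genes with these contrasting changes are printed to show where interferon-type motifs lie. Windows of 300 bases, 250 before to 50 after an annotated RefSeq start (GRCh38.p14), are given 5′ to 3′ on the gene's strand. Capitals mark matches to TTTCNNTTT (interferon-stimulated response element core, reverse complement AAANNGAAA), TTCNNNGAA (gamma-activated site, the same on both strands), TGACNNNGC (antioxidant response element core, reverse complement GCNNNGTCA) and GGGANTTTC (kappa B, reverse complement GAAANTCCC). The PSMB8 window shown is the downstream of 2 annotated (chr6:32843998-32844297, minus strand). The other windows are PSMB10 (chr16:67936801-67937100, minus strand), PSME1, an activator subunit described below (chr14:24135944-24136243, plus strand), TAP1, the peptide transporter gene beside PSMB9 (chr6:32853655-32853954, minus strand), PSMB9 (chr6:32853942-32854241, plus strand) and the downstream of 2 windows of the constitutive PSMB5 (chr14:23034851-23035150, minus strand).
PSMB8: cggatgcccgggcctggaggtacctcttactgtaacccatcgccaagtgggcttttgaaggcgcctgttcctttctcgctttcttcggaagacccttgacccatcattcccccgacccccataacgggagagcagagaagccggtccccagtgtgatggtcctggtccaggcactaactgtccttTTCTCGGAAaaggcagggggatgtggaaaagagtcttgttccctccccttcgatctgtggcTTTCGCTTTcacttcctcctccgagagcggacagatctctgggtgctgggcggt
PSMB10: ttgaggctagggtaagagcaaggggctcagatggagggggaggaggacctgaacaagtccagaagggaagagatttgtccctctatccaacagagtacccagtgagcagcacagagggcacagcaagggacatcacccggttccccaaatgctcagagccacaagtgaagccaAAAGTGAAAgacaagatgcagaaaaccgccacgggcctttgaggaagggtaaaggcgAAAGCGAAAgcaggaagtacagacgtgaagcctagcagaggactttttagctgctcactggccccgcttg
PSME1: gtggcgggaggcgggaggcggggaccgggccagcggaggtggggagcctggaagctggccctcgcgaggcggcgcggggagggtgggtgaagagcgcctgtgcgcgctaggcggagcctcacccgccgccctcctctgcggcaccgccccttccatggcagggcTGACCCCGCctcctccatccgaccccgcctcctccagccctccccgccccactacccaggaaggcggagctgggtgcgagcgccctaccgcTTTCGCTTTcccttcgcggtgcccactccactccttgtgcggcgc
TAP1: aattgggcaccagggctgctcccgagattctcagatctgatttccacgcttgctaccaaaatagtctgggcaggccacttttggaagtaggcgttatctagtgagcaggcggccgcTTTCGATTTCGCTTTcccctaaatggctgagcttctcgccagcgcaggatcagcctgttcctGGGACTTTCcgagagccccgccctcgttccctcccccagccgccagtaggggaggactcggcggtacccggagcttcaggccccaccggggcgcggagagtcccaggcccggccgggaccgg
PSMB9: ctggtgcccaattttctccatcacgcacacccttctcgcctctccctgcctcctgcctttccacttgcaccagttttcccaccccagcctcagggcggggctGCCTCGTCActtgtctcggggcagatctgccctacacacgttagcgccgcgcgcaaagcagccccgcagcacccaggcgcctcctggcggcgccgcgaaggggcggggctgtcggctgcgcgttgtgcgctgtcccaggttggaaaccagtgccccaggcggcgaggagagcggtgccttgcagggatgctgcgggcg
PSMB5: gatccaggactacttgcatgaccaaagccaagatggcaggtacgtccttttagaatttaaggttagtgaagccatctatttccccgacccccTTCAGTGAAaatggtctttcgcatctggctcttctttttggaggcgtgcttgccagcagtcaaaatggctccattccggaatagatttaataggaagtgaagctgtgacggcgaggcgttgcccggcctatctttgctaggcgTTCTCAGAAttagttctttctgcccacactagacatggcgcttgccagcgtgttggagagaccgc

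The PSMB8 window holds a response element match that starts 4 bases before the annotated start and a gamma-activated site match that starts 65 before it. The PSMB10 window holds 2 response element matches, 77 and 20 bases before the start, and the PSME1 match begins at base 6 counted from the start. PSMB9's own window holds no match to the response element. The TAP1 window shown, the upstream of 2 annotated, holds 2 overlapping matches and 1 kappa B match. The other TAP1 window holds neither of these and has 1 gamma-activated site match. The PSMB5 window has 2 gamma-activated site matches and none of the response element. The PSMB8 and PSMB5 windows that are not shown hold no match to any of the motifs. The response element core occurred in 7 of 43 windows of proteasome subunit genes (16.3%) and in 10.5% of all 35116 windows. With a further C required after the core, the counts were 6 of 43 (14%) and 3.57%, and the 6 genes were PSMA4, PSMB4, PSMB8, PSMB10, PSME1 and PSMG4. Of these, PSMA4 and PSMG4 were not called higher in any line by their brightest probe set. The gamma-activated site letters were in 18.6% of the subunit windows against 7.66% of all, the antioxidant core in 30.2% against 13.3%, and the kappa B letters in 0 of 43 against 1.28%. Windows of PSMB6 and PSMB7 were not analysed here.

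PSME1, the alpha subunit of the interferon-induced PA28 cap that opens the core for peptides, moved with the catalytic genes in MM.1S. Its intensity was 1677 and 1735 in MM.1S coculture, against 536 and 632 in MM.1S alone, 1651 and 1489.5 in MM.1R coculture, against 1081 and 1064 in MM.1R alone, and 1672 and 1703 in INA-6 coculture, against 1411 and 1402 in INA-6 alone. The log2 change was 1.54 ± 0.17 (SE, adjusted p = 0.000366) in MM.1S, 0.55 ± 0.17 (SE, adjusted p = 0.0731) in MM.1R and 0.26 ± 0.17 (SE, adjusted p = 0.240) in INA-6. PSME3, which forms the nuclear PA28 gamma cap, had its largest change in INA-6 by the brightest of its 4 probe sets. That probe set read 565 and 558 in MM.1S coculture, against 66.5 and 138 in MM.1S alone, 392 and 386 in MM.1R coculture, against 529 and 449 in MM.1R alone, and 267 and 322 in INA-6 coculture, against 21.2 and 16 in INA-6 alone. It rose by 2.49 ± 0.31 (SE, adjusted p = 0.000659) in MM.1S and 3.67 ± 0.31 (SE, adjusted p = 5.39e-05) in INA-6, and had -0.32 ± 0.31 (SE, adjusted p = 0.626) in MM.1R. The other 3 probe sets of PSME3 had INA-6 changes of -0.53 to 0.68, and none of them passed there.

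PSME4, the PA200 activator, gave opposite readings from different probe sets. Its brightest probe set was 452 and 445 in INA-6 coculture, against 95.7 and 108 in INA-6 alone, a change of 2.09 ± 0.18 (SE, adjusted p = 4.98e-05). The same probe set rose by 0.66 ± 0.18 (SE, adjusted p = 0.0233) in MM.1S and had 0.39 ± 0.18 (SE, adjusted p = 0.211) in MM.1R. Probe set 212220_at fell in all 3 lines instead, with -1.68 ± 0.20 (SE, adjusted p = 0.000513) in MM.1S, -1.14 ± 0.20 (SE, adjusted p = 0.00740) in MM.1R and -0.85 ± 0.20 (SE, adjusted p = 0.00891) in INA-6. PSMF1, a protein that inhibits the core in vitro, rose in INA-6 by 1.32 ± 0.39 (SE, adjusted p = 0.0235) and had 0.52 ± 0.39 (SE, adjusted p = 0.381) in MM.1S and -0.13 ± 0.39 (SE, adjusted p = 0.905) in MM.1R. Its probe set 201052_s_at rose in both MM.1S (3.85 ± 0.40 (SE, adjusted p = 0.000273)) and INA-6 (2.62 ± 0.40 (SE, adjusted p = 0.000963)).

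In the alpha ring, whose subunits form the gate of the core, 4 of 7 genes rose in MM.1S by their brightest probe set, 2 rose in MM.1R, and 1 rose and 3 fell in INA-6, where the shares of all genes called either way were 30.5%, 14.2% and 50.8%. PSMA1 had the largest common change. Its intensity was 2781 and 2734 in MM.1S coculture, against 1208 and 1113 in MM.1S alone, 2734 and 2836 in MM.1R coculture, against 1515 and 1613 in MM.1R alone, and 2076 and 2021 in INA-6 coculture, against 1972 and 1349 in INA-6 alone. It rose by 1.25 ± 0.21 (SE, adjusted p = 0.00279) in MM.1S and 0.83 ± 0.21 (SE, adjusted p = 0.0333) in MM.1R, and its arrays in INA-6 gave 0.33 ± 0.21 (SE, adjusted p = 0.233). PSMA2 rose in MM.1S by 1.16 ± 0.17 (SE, adjusted p = 0.00135) and in MM.1R by 0.67 ± 0.17 (SE, adjusted p = 0.0324), and fell in INA-6, at -0.49 ± 0.17 (SE, adjusted p = 0.0420). PSMA5 went furthest apart between lines. Its intensity was 498 and 462 in MM.1S coculture, against 105 and 167 in MM.1S alone, 533 and 511 in MM.1R coculture, against 443 and 403 in MM.1R alone, and 603 and 592 in INA-6 coculture, against 1219 and 1258 in INA-6 alone. It rose in MM.1S by 1.81 ± 0.23 (SE, adjusted p = 0.000653) and fell in INA-6, at -1.05 ± 0.23 (SE, adjusted p = 0.00596).

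The other alpha genes were lower or passed in 1 line. PSMA4 had -0.50 ± 0.16 (SE, adjusted p = 0.0300) in INA-6, a fall, and 0.14 in MM.1S, and the PSMA4 call in INA-6 held in 10 of 22 alternative settings. PSMA7 rose in MM.1S by 0.61 ± 0.17 (SE, adjusted p = 0.0293). PSMA3 passed in no line by its brightest probe set, with -0.48, -0.55 and -0.06 in MM.1S, MM.1R and INA-6. PSMA8, a testis form of an alpha subunit, rose in INA-6 by 1.86 ± 0.51 (SE, adjusted p = 0.0163) at intensities of 218 and 243 in INA-6 coculture, against 72.2 and 49.4 in INA-6 alone. Its change was -0.82 ± 0.51 (SE, adjusted p = 0.277) in MM.1S.

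Among the 4 structural beta subunits, which have no proteolytic site, PSMB2, PSMB3 and PSMB4 rose in MM.1S by their brightest probe sets. By these none passed in MM.1R or INA-6. The shares of all genes called either way were 30.5% in MM.1S, 14.2% in MM.1R and 50.8% in INA-6. PSMB2 had 1388 and 1330.3 in MM.1S coculture, against 523 and 471 in MM.1S alone, a change of 1.44 ± 0.18 (SE, adjusted p = 0.000714). PSMB3 had 2039.8 and 1988 in MM.1S coculture, against 848 and 916 in MM.1S alone, a change of 1.19 ± 0.16 (SE, adjusted p = 0.000985). The changes of PSMB2 and PSMB3 in INA-6 were 0.19 and -0.08. PSMB4 rose by 0.68 ± 0.18 (SE, adjusted p = 0.0248) in MM.1S, and PSMB1 had 0.29 ± 0.16 (SE, adjusted p = 0.217) there by its brightest probe set and 1.91 ± 0.19 (SE, adjusted p = 0.000254) by its other tested one.

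The ATPases of the base, which unfold the substrate, were led by PSMC3. Its intensity was 422 and 414 in MM.1S coculture, against 70.0 and 86.1 in MM.1S alone, 468 and 467 in MM.1R coculture, against 130.0 and 139 in MM.1R alone, and 178 and 189 in INA-6 coculture, against 320.3 and 263 in INA-6 alone. In both MM.1 lines the coculture arrays were far above the others, and in INA-6 they were the lower ones. PSMC3 rose by 2.36 ± 0.19 (SE, adjusted p = 9.73e-05) in MM.1S and 1.76 ± 0.19 (SE, adjusted p = 0.000678) in MM.1R and fell in INA-6, at -0.65 ± 0.19 (SE, adjusted p = 0.0210). PSMC1 fell in INA-6, at -0.65 ± 0.18 (SE, adjusted p = 0.0201), PSMC2 rose in MM.1S by 0.66 ± 0.16 (SE, adjusted p = 0.0172), and PSMC4 rose in INA-6 by 1.11 ± 0.37 (SE, adjusted p = 0.0363). PSMC6 passed in none of the lines and had 0.88 ± 0.30 (SE, adjusted p = 0.0987) in MM.1R. Of the scaffold and ubiquitin receptor subunits of the base, PSMD2 rose in MM.1S by 0.59 ± 0.16 (SE, adjusted p = 0.0244) and PSMD4, a ubiquitin receptor, by 0.93 ± 0.20 (SE, adjusted p = 0.00848), while PSMD1 had 0.17 ± 0.16 (SE). PSMD4 also rose in INA-6, by 0.57 ± 0.20 (SE, adjusted p = 0.0431).

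PSMD8, a structural subunit of the lid, had the largest MM.1S change of all 47 genes by their brightest probe sets. Its intensity was 1233 and 1358 in MM.1S coculture, against 123 and 169 in MM.1S alone, 1333 and 1296 in MM.1R coculture, against 490.1 and 452 in MM.1R alone, and 1075 and 1014 in INA-6 coculture, against 708 and 520.4 in INA-6 alone. It rose by 3.12 ± 0.22 (SE, adjusted p = 7.09e-05) in MM.1S, 1.47 ± 0.22 (SE, adjusted p = 0.00383) in MM.1R and 0.78 ± 0.22 (SE, adjusted p = 0.0212) in INA-6. The INA-6 call held in 16 of 22 alternative settings. PSMD14, the lid enzyme that removes ubiquitin chains, fell in INA-6, at -0.64 ± 0.17 (SE, adjusted p = 0.0163), and had -0.11 in MM.1S and -0.22 in MM.1R. PSMD12 fell in INA-6 by its brightest probe set, at -2.03 ± 0.18 (SE, adjusted p = 6.24e-05). PSMD11 rose in MM.1S by 0.85 ± 0.24 (SE, adjusted p = 0.0291), PSMD3 rose in INA-6 by 0.67 ± 0.22 (SE, adjusted p = 0.0329), and PSMD6 passed in none, with changes of 0.15, 0.05 and -0.16 in MM.1S, MM.1R and INA-6.

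The 3 chaperones that assemble the base rose in MM.1S, where 30.5% of all genes were called either way. PSMD5 had 367 and 387 in MM.1S coculture, against 91.5 and 117 in MM.1S alone, 418 and 349.8 in MM.1R coculture, against 230.2 and 163 in MM.1R alone, and 407 and 389 in INA-6 coculture, against 77.9 and 22.9 in INA-6 alone. Its log2 change was 1.82 ± 0.45 (SE, adjusted p = 0.0168) in MM.1S, 0.96 ± 0.45 (SE, adjusted p = 0.226) in MM.1R and 3.07 ± 0.45 (SE, adjusted p = 0.000797) in INA-6, the largest INA-6 value after PSME3 among the brightest probe sets. PSMD10, also known as gankyrin, rose in MM.1S by 1.49 ± 0.30 (SE, adjusted p = 0.00629), and PSMD9 by 0.61 ± 0.20 (SE, adjusted p = 0.0489) in MM.1S and 0.77 ± 0.20 (SE, adjusted p = 0.0359) in MM.1R. Of the PSMG chaperones, which assemble the alpha ring, PSMG1 rose in MM.1S. It had 1167 and 1139 in MM.1S coculture, against 190.3 and 234 in MM.1S alone, and 666 and 674 in INA-6 coculture, against 1035 and 574 in INA-6 alone. Its change was 2.42 ± 0.27 (SE, adjusted p = 0.000386) in MM.1S, 0.72 ± 0.27 (SE, adjusted p = 0.131) in MM.1R and -0.20 ± 0.27 (SE, adjusted p = 0.574) in INA-6. PSMG3 rose in INA-6 by 1.01 ± 0.24 (SE, adjusted p = 0.00860). PSMG2 and PSMG4 passed in none of the lines, with changes of 0.26 and 0.08 in MM.1S, 0.15 and -0.10 in MM.1R, and 0.39 and 0.21 in INA-6.

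Several of these calls were lost in part of the alternative settings, and some in most of them. PSMA2's fall in INA-6 held in 7 of 22 settings, PSMD4's rise in INA-6 in 6 of 22 settings, and PSMD11's rise in MM.1S in 13 of 24 settings. The MM.1R rises of PSMA1 and PSMA2 held in 12 of 24 settings and 12 of 24 settings, and that of PSMB5 in 13 of 24 settings. By contrast, the MM.1S rises of all 6 catalytic genes, PSME1, PSMC3 and PSMD8 held in all 24.

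**Figure D3:**
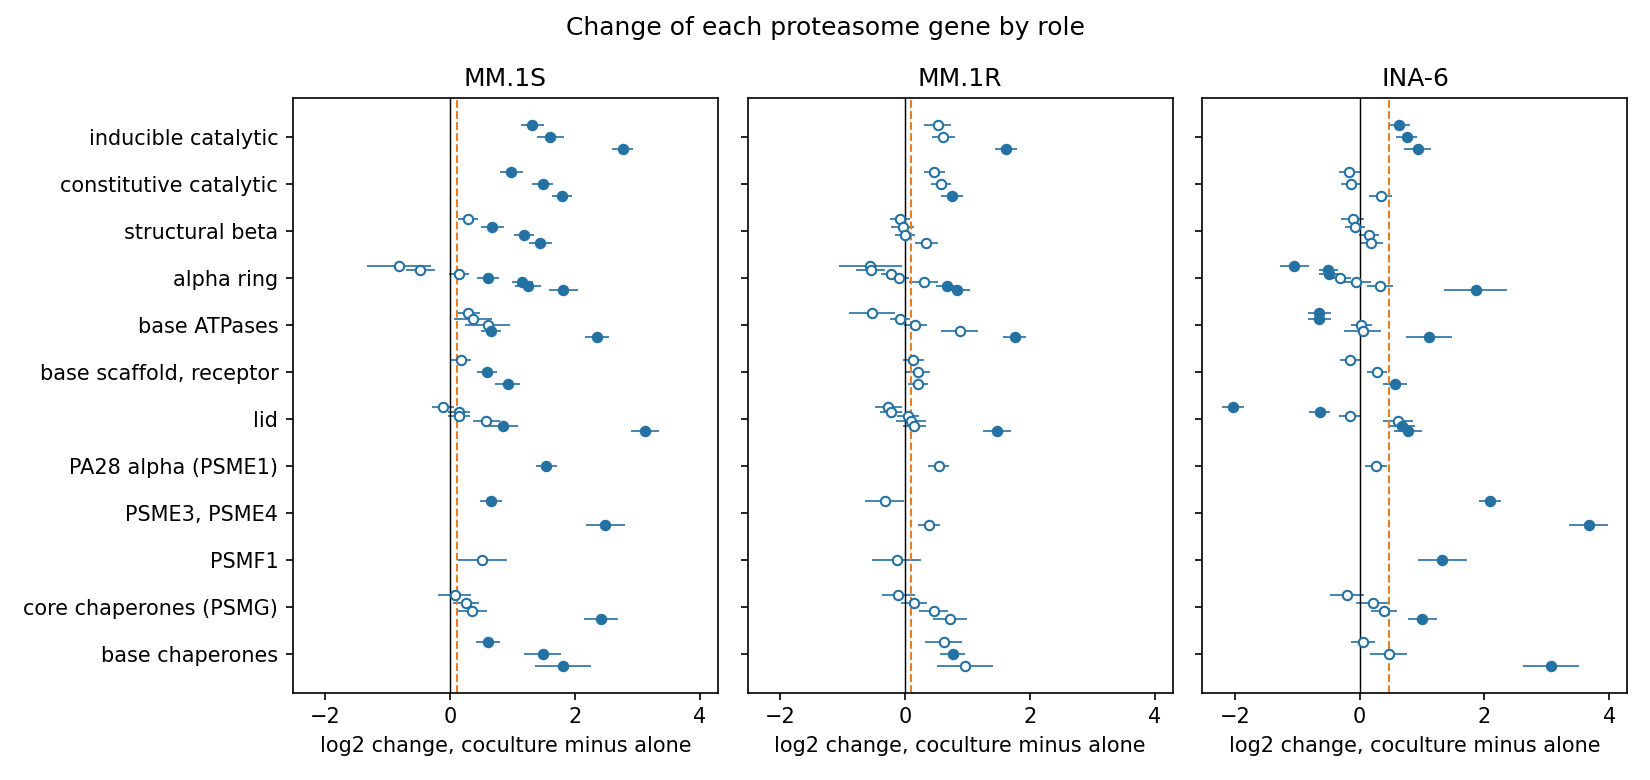
Log2 change, coculture minus alone (x axis), of the 42 subunit, activator, inhibitor and chaperone genes by role (y axis) in MM.1S, MM.1R and INA-6, each by its brightest probe set, with SE bars. Filled points passed at an adjusted p of 0.05 and dashed lines are the medians of all genes (0.11 in MM.1S, 0.09 in MM.1R and 0.47 in INA-6); 26 of 42 are filled in MM.1S, 7 in MM.1R and 20 in INA-6, of which 7 lie below 0, against 30.5%, 14.2% and 50.8% of all genes called.

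The coculture effect differed between the lines for 35 of the 85 probe sets by limma's F test of the interaction, 41.2% against 32.8% of all probe sets, and for 18 of 47 genes by their brightest probe set against 33.3%. Between MM.1R and MM.1S, 0 of 85 effects differed at an adjusted p of 0.05 and 26 had an unadjusted p under 0.05, with 0.398% of all probe sets passing. Between INA-6 and the mean of the MM.1 lines, 37 differed, 14 higher and 23 lower in INA-6, 43.5% against 36.9% of all (24.1% higher, 12.8% lower). For PSMB8 the INA-6 effect minus that of the MM.1 lines was -1.44 ± 0.21 (SE, adjusted p = 0.00126), and for PSMB9 it was -0.34 ± 0.22 (SE, adjusted p = 0.266). For PSMB6 it was -1.27 ± 0.20 (SE, adjusted p = 0.00188) and for PSMB7 -1.19 ± 0.20 (SE, adjusted p = 0.00239). PSMB10, at -0.14 ± 0.27 (SE, adjusted p = 0.722), showed no detected difference. PSMC3 had -2.70 ± 0.23 (SE, adjusted p = 9.59e-05). The activator PSME4, whose probe sets disagreed, had 1.57 ± 0.21 (SE, adjusted p = 0.000906) by its brightest. By brightest probe set, 4 of the 42 subunit, activator, inhibitor and chaperone genes were higher in INA-6 and 13 lower. The higher ones were PSME3, PSME4, 1 alpha gene and 1 base chaperone. None of the catalytic, structural beta, ATPase or lid genes was called higher. The ACTB ratio moved in opposite directions in INA-6 and the MM.1 lines, as given above, and its part in these differences was not tested.

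Probe sets of the same gene disagreed in some cases, at shares near those of all genes. Of 23 proteasome genes with several tested probe sets, 1 (PSME4) had probe sets called in opposite directions in MM.1S, 0 in MM.1R and 4 (PSMB2, PSME4, PSMA5 and PSMD12) in INA-6. Among all 7212 genes with several tested probe sets the shares were 4.83%, 0.804% and 13% in MM.1S, MM.1R and INA-6. PSMD12 shows the size of the conflict. Probe set 202352_s_at was 357 and 379.8 in INA-6 coculture, against 1697 and 1356 in INA-6 alone, a change of -2.03 ± 0.18 (SE, adjusted p = 6.24e-05). Probe set 202353_s_at was 226 and 301 in INA-6 coculture, against 86.0 and 38.3 in INA-6 alone, a change of 2.08 ± 0.35 (SE, adjusted p = 0.00173). For PSMA5, probe set 230300_at rose in INA-6 by 1.46 ± 0.23 (SE, adjusted p = 0.00119) while the brighter 201274_at fell as described. PSMB2 had -2.93 ± 0.73 and 1.20 ± 0.31 (SE) in INA-6 from probe sets 201404_x_at and 238425_at, and its brightest gave 0.19 ± 0.18. In other genes the direction was shared and the size was not. In MM.1S, PSMA7 rose by 0.61 ± 0.17 by its brightest probe set and 3.07 ± 0.25 by its other one, and PSMB4 rose by 0.68 ± 0.18, 0.89 ± 0.25 and 2.10 ± 0.17 by its 3. The 6 catalytic genes had 1 tested probe set each, except PSMB7, which had 2.

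**Figure D4:**
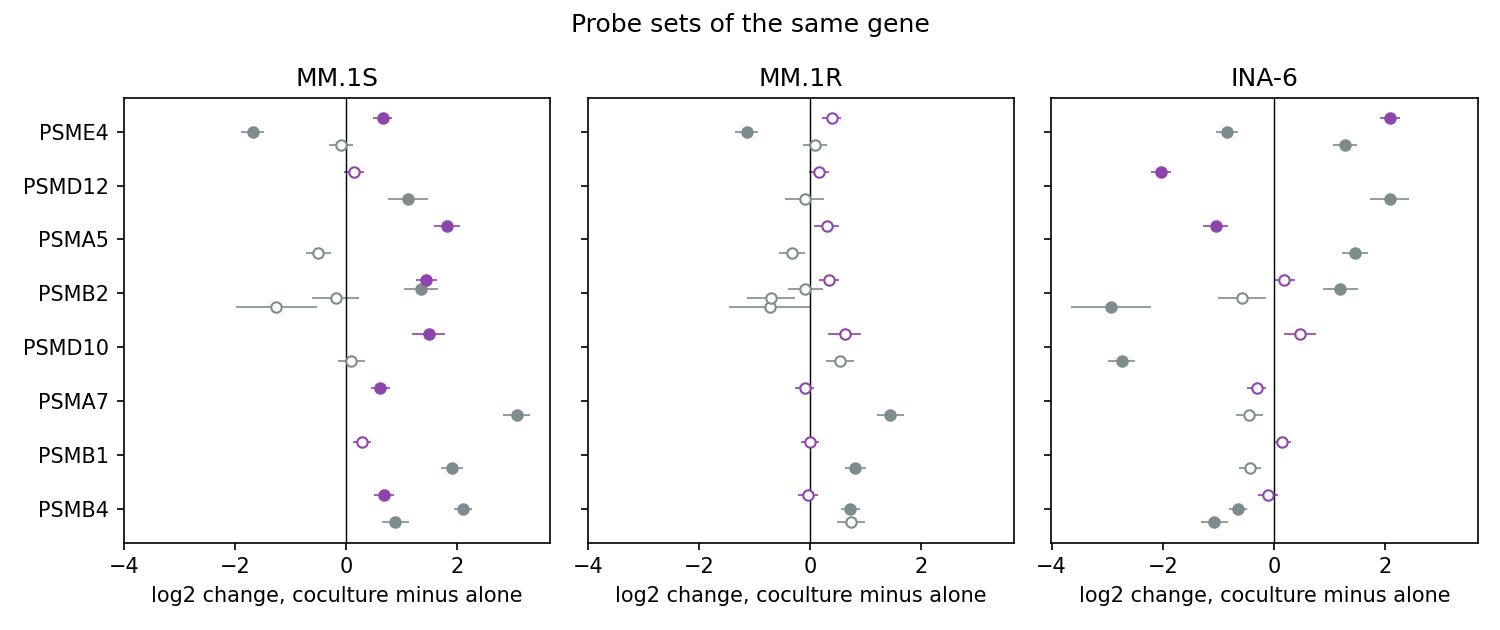
Log2 change, coculture minus alone (x axis), of every tested probe set of 8 genes (y axis) in MM.1S, MM.1R and INA-6, with SE bars; purple marks the brightest probe set of the gene, grey the others, and filled points passed at an adjusted p of 0.05. PSME4, PSMD12, PSMA5 and PSMB2 have filled points on both sides of 0 in INA-6, the first 4 genes from the top; PSMD10, PSMA7, PSMB1 and PSMB4 were chosen after their values were seen.

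Lines kept without stroma already differed in proteasome RNA, and these comparisons use the same arrays of cells alone as the coculture effects, so the values are given side by side and not related. In MM.1R alone against MM.1S alone, 19 of 85 probe sets were higher and 1 lower, 23.5% against 6.95% of all (5.81% higher, 1.14% lower). The change was 1.27 ± 0.17 (SE, adjusted p = 0.00688) for PSMB6, 1.06 ± 0.17 (SE, adjusted p = 0.0122) for PSMB8, 0.94 ± 0.22 (SE, adjusted p = 0.0399) for PSMB10 and 0.89 ± 0.16 (SE, adjusted p = 0.0178) for PSMB7. PSMB9 had 0.50 ± 0.18 (SE, adjusted p = 0.156) and PSMB5 0.51 ± 0.18 (SE, adjusted p = 0.153), short of the threshold. PSMG1 at 1.65 ± 0.27 (SE, adjusted p = 0.0126), PSMD8 at 1.67 ± 0.22 (SE, adjusted p = 0.00743) and PSMA5 at 1.63 ± 0.23 (SE, adjusted p = 0.00804) were also higher in MM.1R. Without either MM.1R array of cells alone in turn, 0 of 85 passed, and without either INA-6 array of cells alone 43 did. The whole array moved with them, since 0 and 144 of 35664 probe sets passed without the first and the second MM.1R array, and 8265 passed without either INA-6 array.

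In INA-6 alone against the mean of the MM.1 lines alone, 27 probe sets were higher and 22 lower, 57.6% against 51.8% of all (19% higher, 32.8% lower). PSMB8 was higher by 2.04 ± 0.15 (SE, adjusted p = 1.24e-05), a 4.10-fold difference, and PSMB9 by 0.75 ± 0.16 (SE, adjusted p = 0.00389), whereas PSMB10 had -0.10 ± 0.19 (SE, adjusted p = 0.672). All 3 constitutive genes were higher in INA-6, by 0.70 ± 0.16 (SE, adjusted p = 0.00615) for PSMB5, 0.92 ± 0.14 (SE, adjusted p = 0.000862) for PSMB6 and 0.89 ± 0.14 (SE, adjusted p = 0.000939) for PSMB7. PSMA5 was higher by 2.36 ± 0.20 (SE, adjusted p = 2.53e-05) and PSMD12 by 1.93 ± 0.15 (SE, adjusted p = 2.00e-05), each through its brightest probe set. At the other end, also by the brightest probe set, were PSME3 at -3.25 ± 0.27 (SE, adjusted p = 2.49e-05), PSMF1 at -1.84 ± 0.34 (SE, adjusted p = 0.00217) and PSME4 at -1.62 ± 0.15 (SE, adjusted p = 4.74e-05). The PSME3 probe set lay below the array medians of 21.5 and 23.95 in INA-6 alone. The other probe sets of these genes are not compared here. The order of PSMB8 in cells alone was thus INA-6, MM.1R, MM.1S, with no overlap between any neighbours.

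The symbols that share the prefix but name no subunit had 10 of 16 probe sets tested. PSMB8-AS1 overlaps the upstream end of PSMB8 on chromosome 6. Its brighter probe set was 226 and 204 in MM.1S coculture, against 37.5 and 56.6 in MM.1S alone, 186 and 190.1 in MM.1R coculture, against 70.5 and 67.0 in MM.1R alone, and 204 and 231 in INA-6 coculture, against 88.3 and 51.2 in INA-6 alone. It rose by 2.10 ± 0.28 (SE, adjusted p = 0.000856) in MM.1S, 1.39 ± 0.28 (SE, adjusted p = 0.0129) in MM.1R and 1.62 ± 0.28 (SE, adjusted p = 0.00184) in INA-6. PSMB8-AS1's other probe set passed in none. PSMA3-AS1 rose in INA-6 by 2.64 ± 0.47 (SE, adjusted p = 0.00219) and in MM.1S by 1.51 ± 0.47 (SE, adjusted p = 0.0431), a call that held in 9 of 24 alternative settings. PSMC3IP, a meiotic recombination cofactor named for binding PSMC3, rose in INA-6 by 2.25 ± 0.55 (SE, adjusted p = 0.00989) and had -0.67 ± 0.55 (SE, adjusted p = 0.415) in MM.1S. PSMD6-AS2 passed in none, with -1.42 ± 0.46 (SE) in MM.1S, and PSME3IP1, a partner of PSME3, had 0.48 ± 0.19 (SE) in INA-6 by its brightest probe set.

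Around the proteasome, the pathway lists gave the following. Of 25 partner genes without the prefix 23 were measured by their brightest probe set, and 6 rose and 1 fell in MM.1S, 2 rose in MM.1R, and 12 rose and 3 fell in INA-6, against 30.5%, 14.2% and 50.8% of all genes called either way, so that the MM.1S and MM.1R counts lay at or below the background. Their median log2 change was 0.46 in MM.1S, 0.25 in MM.1R and 0.92 in INA-6, against 0.11, 0.09 and 0.47 over all genes. POMP, the chaperone that matures the core and favours immunoproteasomes, rose in MM.1S by 0.94 ± 0.18 (SE, adjusted p = 0.00576) and fell in INA-6, at -0.53 ± 0.18 (SE, adjusted p = 0.0424). NFE2L1, the factor that induces subunit genes when the proteasome is inhibited, passed in none, with -0.28, 0.31 and -0.24 in MM.1S, MM.1R and INA-6. RAD23B, a shuttle for ubiquitinated substrates, rose in each line, by 1.88 ± 0.29 (SE, adjusted p = 0.00188) in MM.1S, 1.20 ± 0.29 (SE, adjusted p = 0.0290) in MM.1R and 1.0 ± 0.29 (SE, adjusted p = 0.0222) in INA-6. ECPAS, which tethers proteasomes, fell in MM.1S, at -0.99 ± 0.16 (SE, adjusted p = 0.00228), and in INA-6, at -1.06 ± 0.16 (SE, adjusted p = 0.000953). UFD1, a cofactor of the segregase VCP, fell in INA-6, at -0.83 ± 0.17 (SE, adjusted p = 0.00418), and had -0.31 in MM.1S and -0.21 in MM.1R. ZFAND2A, a stress-induced protein that binds the proteasome, rose in INA-6 by 1.72 ± 0.46 (SE, adjusted p = 0.0149) and had 1.21 ± 0.46 (SE, adjusted p = 0.0842) in MM.1S and 1.58 ± 0.46 (SE, adjusted p = 0.0560) in MM.1R.

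Of the class I presentation genes, 15 of 16 were measured, and 12 rose in MM.1S, 6 rose in MM.1R, and 1 rose and 6 fell in INA-6, against 30.5%, 14.2% and 50.8% of all genes called either way. The number called in INA-6 was near that share. The median log2 change of that list was 1.06 in MM.1S, 0.38 in MM.1R and -0.34 in INA-6, against 0.11, 0.09 and 0.47 over all genes. HLA-B was 3317 and 3359 in MM.1S coculture, against 661 and 722 in MM.1S alone, and 2691 and 2768 in INA-6 coculture, against 3394 and 4120.4 in INA-6 alone. It rose by 2.26 ± 0.18 (SE, adjusted p = 9.37e-05) in MM.1S and 1.25 ± 0.18 (SE, adjusted p = 0.00273) in MM.1R and had -0.45 ± 0.18 (SE, adjusted p = 0.0659) in INA-6. HLA-C rose by 2.02 ± 0.17 (SE, adjusted p = 0.000111) in MM.1S. TAP1, which carries proteasome products into the endoplasmic reticulum and lies beside PSMB9, rose in MM.1S by 0.65 ± 0.17 (SE, adjusted p = 0.0237) and had 0.38 ± 0.17 (SE, adjusted p = 0.218) in MM.1R and 0.16 ± 0.17 (SE, adjusted p = 0.489) in INA-6. ERAP2, a peptidase that trims class I peptides, passed in none, with -0.63, -0.29 and 0.52 in MM.1S, MM.1R and INA-6. The 6 that fell in INA-6 were HLA-F, HLA-G, ERAP1, PDIA3, CALR and CANX, named after their values were seen. In INA-6 the inducible subunits and the class I list thus did not share a direction.

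Interferon receptors and transcription factors rose in 8 of 14 measured genes in MM.1S, 5 in MM.1R and 8 in INA-6, where 1 fell, against the same 30.5%, 14.2% and 50.8% of all genes called. Their median log2 changes were 0.83, 0.66 and 1.11 in these lines, against 0.11, 0.09 and 0.47 over all genes. IRF1, a factor that activates the inducible subunit genes, was 743 and 661 in MM.1S coculture, against 224 and 301 in MM.1S alone, 716 and 767 in MM.1R coculture, against 443 and 374 in MM.1R alone, and 357 and 416 in INA-6 coculture, against 102 and 109 in INA-6 alone. It rose by 1.41 ± 0.21 (SE, adjusted p = 0.00149) in MM.1S, 0.86 ± 0.21 (SE, adjusted p = 0.0294) in MM.1R and 1.82 ± 0.21 (SE, adjusted p = 0.000232) in INA-6. IRF9, the DNA-binding part of the interferon-stimulated complex, rose by 2.01 ± 0.30 (SE, adjusted p = 0.00156), 1.81 ± 0.30 (SE, adjusted p = 0.00568) and 1.72 ± 0.30 (SE, adjusted p = 0.00202) in MM.1S, MM.1R and INA-6. IRF7 rose by 1.67 ± 0.33 (SE, adjusted p = 0.00579) in MM.1S, 1.60 ± 0.33 (SE, adjusted p = 0.0142) in MM.1R and 4.81 ± 0.33 (SE, adjusted p = 1.99e-05) in INA-6. Its intensities of 10.1 and 26.2 in INA-6 alone lay around the array medians of 21.5 and 23.95. Of 15 genes of ubiquitin and its activation 7 were measured, and 4 rose and 1 fell in MM.1S, 2 rose and 1 fell in MM.1R, and 4 rose and 1 fell in INA-6, against 30.5%, 14.2% and 50.8% of all genes called. ISG15, a ubiquitin-like modifier induced by interferon, passed in the common test with 4.31 ± 0.40 (SE, adjusted p = 0.0103). UBA1, the main ubiquitin-activating enzyme, rose in MM.1S by 1.70 ± 0.20 (SE, adjusted p = 0.000489) and in INA-6 by 2.03 ± 0.20 (SE, adjusted p = 0.000112) and had 0.18 ± 0.20 (SE, adjusted p = 0.689) in MM.1R. USP18, which removes ISG15 from proteins, had 1.09 ± 0.38 (SE, adjusted p = 0.0651) in MM.1S and 0.57 ± 0.38 (SE, adjusted p = 0.431) in MM.1R and fell in INA-6, at -1.75 ± 0.38 (SE, adjusted p = 0.00588). USP18 was dim, with a mean intensity of 51.7 in INA-6 alone and 7.68 to 21.55 in the other groups. The array medians were 19.8 to 24.1. UBA6, a further activating enzyme, was named after its values were seen. It fell in MM.1S, at -1.24 ± 0.24 (SE, adjusted p = 0.00534), and in MM.1R, at -1.31 ± 0.24 (SE, adjusted p = 0.00867), and rose in INA-6 by 3.03 ± 0.24 (SE, adjusted p = 3.74e-05). UBE2N, a ubiquitin-conjugating enzyme, passed in none, with 0.03, -0.51 and -0.19 in MM.1S, MM.1R and INA-6.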

How the data were processed

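RNA of the 12 sorted populations was hybridised to Affymetrix U133 Plus 2.0 arrays. The authors deposited 1 intensity per probe set and array on a linear scale. The submitters' processing notes name MAS5, whereas the series text names dChip with averaging of duplicates, and the table holds 12 separate columns. Probe sets were named from the platform annotation of the deposited table (41097 with 1 symbol, 1801 with several, 11777 with none). Values were taken as log2(intensity + 5), and probe sets above their array's median on at least 2 of the 12 arrays were tested (35664). Because of the added 5, fold changes of dim probe sets are understated.

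For the shared coculture effect, duplicates were averaged and limma 3.58.1 (R 4.3.3) was run with the line as a block. Effects within lines, their interaction and differences between lines without stroma were fitted in limma on all 12 arrays with 1 mean per group, and p-values were adjusted by Benjamini-Hochberg over all tested probe sets. Precision is limited by the few arrays. The brightest probe set of a gene is the tested probe set whose mean log2 value over all arrays is greatest. Genes are named by a rule: all catalytic, PSME, PSMF and PSMG genes, the 2 largest rises and falls of each role and list, the 3 extremes of each line and of INA-6 against the MM.1 lines without stroma, and regulators, of which IRF1, NFE2L1, POMP and TAP1 had values. Others, among them PSMC2, PSMC4, PSMD1, PSMD3, PSMD6, PSMD9, PSMA7, PSMB1 and PSMB4, complete their roles and were added after values were seen. The members, lists and tests were chosen with earlier results of these data known. Promoter windows and gene positions are RefSeq's (GRCh38.p14), and motifs were searched on both strands.

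Same-numbered duplicates of a line deviated together with r = 0.385 in MM.1S, 0.576 in MM.1R and 0.0784 in INA-6. The main fit did not take the numbers as pairs, although those of MM.1S and MM.1R shared deviations. Alternatives were the pseudocount, the filter, quantile normalization, centring, 1 probe set per gene, a replicate block, the arrays of a line alone, and leaving out INA-6 or each array. Some genes of the lists and of the family were not analysed here.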

Additional observations from a re-analysis of the deposited data

Results flagged for a closer look

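The coculture effect differed between the 3 lines for 18 genes by their brightest probe set, by limma's F test of the interaction over all 12 arrays. The adjusted p-values of the catalytic and cap genes were PSMB6 (0.00142), PSMB8 (0.00154), PSMB7 (0.00311), PSME3 (0.000929), PSME4 (0.00261) and PSME1 (0.00944). Those of the alpha and structural beta genes were PSMA5 (0.00111), PSMA2 (0.00313), PSMA7 (0.0413), PSMA8 (0.0347), PSMB3 (0.00525) and PSMB2 (0.0126). In the base and lid they were PSMC3 (0.000300), PSMC1 (0.0439), PSMD12 (0.000683) and PSMD8 (0.00232), and outside them PSMG1 (0.00349) and PSMC3IP (0.0361). The share of all genes' brightest probe sets that passed the same test was 33.3%.

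Effects of opposite sign between MM.1S and INA-6, both past the threshold, were found for PSMC3 (log2 changes of 2.36, 1.76 and -0.65 in MM.1S, MM.1R and INA-6), PSMA5 (1.81, 0.30 and -1.05) and PSMA2 (1.16, 0.67 and -0.49). These values are from the brightest probe sets, and another probe set of PSMA5 rose in INA-6. PSMA2's fall in INA-6 held in 7 of 22 settings. The share of all genes with such opposite calls was not counted, while 30.5% were called in MM.1S and 50.8% in INA-6. PSME3 had 2.49, -0.32 and 3.67 in the same order of lines by the brightest of its 4 probe sets, and its MM.1R and MM.1S effects did not differ past the threshold. The ACTB 3′ to 5′ ratio and the level of the duplicates' agreement also differ between these groups, and their part was not tested.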

How the results depend on the processing

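For 106 values of named genes, 2275 alternative values were computed, which kept direction and side of the threshold in 2015, lost the call in 226, gained it in 32 and reversed in 2. The reversals were both under quantile normalization: PSMB5 after coculture in INA-6 (-0.0941) and PSMA4 in INA-6 alone against the MM.1 lines alone (-0.18). The cause was not tested.

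Counts of member probe sets past the threshold moved as follows. The common effect, 0 as fitted, was 27 with the 12 arrays not averaged (28.1% of all). It was 25 with INA-6 left out and the duplicates averaged (22.9% of all), and 0 with any array left out. MM.1S, 43 as fitted, ranged over 27 to 57 with 1 array left out, lowest without the first MM.1S coculture array. MM.1R, 15 as fitted, was 8 with centred arrays, 8 with no filter, 30 without INA-6 and 33 without both INA-6 alone arrays, and ranged over 4 to 33 with 1 array left out, lowest without the second MM.1R array of either condition and highest without either INA-6 alone array. INA-6, 41 as fitted, was 24 of 47 with 1 probe set per gene, against 41 of 85, and 10 from its own 4 arrays, and ranged over 20 to 56, lowest without either INA-6 coculture array. The interaction, 35 as fitted, was 22 of 47 with 1 probe set per gene, and ranged over 23 to 61, highest without the first INA-6 alone array. MM.1R against MM.1S alone, 20 as fitted, was 36 without INA-6 and 43 without both INA-6 alone arrays, and ranged over 0 to 43. INA-6 against the MM.1 lines alone, 49 as fitted, was 30 of 47 with 1 probe set per gene, which tests fewer features, and ranged over 45 to 57. Where an array was left out its lone duplicate was assumed to vary like the others. The whole array moved with the settings too. In MM.1R, 4978 of 35664 probe sets were called as fitted, 3862 with centred arrays and 4018 of 54612 with no filter. With 1 probe set per gene, 7860 of 15052 were called in INA-6. The interaction had 5379 of them and INA-6 against the MM.1 lines alone 8365. Whole-array counts with 1 array left out are not set beside the ranges. These ranges are thus not read as a trait of the proteasome genes.

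With the replicate block the counts were 40 in MM.1S, 11 in MM.1R, 38 in INA-6, 31 for the interaction and 16 and 49 for the line differences, within 1.5 times of those fitted. Deviations of MM.1S and MM.1R arrays of the same number correlated at -0.343 to -0.518, and with MM.1R numbers crossed, chosen after seeing the data, the counts were 42, 15, 44, 39, 19 and 51. Leaving out both INA-6 alone arrays was also added after seeing the data. Duplicates of single cultures limit all within-line p-values, and the 3 lines limit the common test.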
